A study of Danio rerio with 2 samples.

Results

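The 32 heat shock protein and cochaperone genes described here cover the inducible and constitutive HSP70 proteins, cytosolic HSP90, the mitochondrial chaperones, HSPB1, the J-domain proteins and the cochaperones of HSP90. They were chosen by gene symbol. RefSeq accessions in the deposited tables were matched to the current zebrafish symbol, and 26 of the 32 had a matching row, among 17963 genes in all. In that number, and in every share of all genes below, a row without a matched symbol counts as a gene of its own. The other 6, hspa8b, hspa1b, hsp70.1, hsp70.2, hsp90aa1.1 and hsf1, were not analysed here. Whether they lie among the rows that carry no accession, or among those whose accession matched no symbol, was not tested. Of the 26, 22 had at least 10 tags over both libraries, 3 had fewer and ahsa1a had none in either library.

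Livers came from wild-type zebrafish aged 3 months, siblings in both groups. One group was exposed to sodium arsenate, at a dose the labels do not give, and the other was kept in water. Both were held this way for 96 h in 3 L tanks with about 15 adults each. Each group is 1 library, and the number of fish behind a library is not given in the sources used here. The assay was 3' SAGE, in which a short tag near the 3' end of each transcript is sequenced and counted, so a count is of tags per transcript and does not scale with transcript length.

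Chaperones of the HSP70 and HSP90 families bind unfolded or partly folded proteins and release them in cycles driven by ATP. J-domain proteins hand substrates to HSP70 and start its ATP hydrolysis, exchange factors such as the HSP110 and BAG proteins reset it, and a ring of cochaperones steers clients such as kinases and steroid receptors through HSP90. In vertebrate cells some of these genes are always transcribed, while others are switched on by heat shock factors when unfolded proteins accumulate. Arsenic compounds are classical inducers of this heat shock response in cultured cells.

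Levels are in RPM, tags scaled to the same total in each library. The library of exposed fish held 4420935 tags and that of control fish 2592679, and values are given as "with arsenate" and "with water" for these libraries. One tag was worth 0.226 RPM in the former and 0.386 RPM in the latter. For a gene with 0 tags, 3 tags was the limit used, which is 0.679 RPM with arsenate and 1.16 RPM with water. No fold is given where both libraries held 3 tags or fewer, and a ratio over 1 to 3 tags is printed with its interval. A gene was counted as higher or lower when it had at least 10 tags and the ratio of RPM + 1, arsenate to water, was at least 2 or at most 0.5. Ratios printed for single genes are of RPM without the added 1, with a 95% interval for counting error only. With 1 library per group there was no replicate check on any difference below, and no p-value was computed for a gene.

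The identity of the tissue was checked on marker genes fixed with the lists. Hepatocyte markers took 3.94% of tags with arsenate and 12.4% with water, led by fabp10a at 23450 RPM against 96575 RPM and apobb.1 at 8365 RPM against 15115 RPM. Of the 10 hepatocyte markers listed, 5 had a matching row, 4 with a ratio below 1 and 1 with a ratio above 1. Exocrine pancreas markers stood at 0.318% against 3.81% of tags, with 14 of 15 measured markers lower, led by prss59.1 and cela1.6. Testis markers summed to 7 tags with arsenate and 789 with water, led by insl3 and sycp1. The ratio of summed RPM was 0.677 for enterocytes (led by apoa4b.2 and tm4sf4), 0.798 for erythrocytes (hbba1 and ba1l), 0.733 for macrophages (lgmn and cd74b), 0.893 for neutrophils (mpx and mmp9) and 1.48 for skeletal muscle (acta1a and ckmb). Of the markers counted, 2 of 5 enterocyte, 4 of 7 erythrocyte and 2 of 4 macrophage genes were lower, 1 enterocyte, 2 of 4 neutrophil and 1 of 3 muscle genes were higher, and 1 muscle gene was lower. Over all genes with at least 10 tags, 15.6% were higher and 14.4% lower. The genes named for enterocytes and erythrocytes were neither higher nor lower, and the lower genes of these 2 lists had fewer tags. The sums hide opposite ratios within a list. For macrophages lgmn had 1.69 and cd74b 0.166, and for neutrophils mpx had 0.569 and mmp9 2.35. In whole-organ RNA, fewer cells of a type and less RNA per cell cannot be told apart. Pancreas and testis are organs other than liver, and how much of their tissue each library held was not tested.

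The 2 inducible HSP70 genes with a matching row, of 5 listed, were close to absent from both libraries. The constitutive HSP70 gene hspa8, the mitochondrial HSP70 gene hspa9 and the immunophilin genes fkbp4 and fkbp5 were 2.41-fold to 3.27-fold lower with arsenate. The main HSP90 and HSP60 genes were level. Across the 22 members with at least 10 tags, 2 were higher in the arsenate library (hsp90aa1.2 and cdc37), 4 were lower (hspa8, hspa9, fkbp4 and fkbp5) and 16 were neither. The shares, 9.09% higher and 18.2% lower, compare with 15.6% of all 7839 genes higher and 14.4% lower by the same rule, so the share lower was near that of all genes and the share higher below it. The genes higher made up 52.1% of all genes called, and 63.5% when the libraries were scaled without their 10 most abundant genes. Of the 18 members with at least 50 tags, 1 was higher and 4 were lower, beside 16.1% and 12.7% of all such genes. The median log2 ratio of the 22 was 0.12, beside 0.04 for all genes, and 12 of the 22 had a ratio above 1. The counting interval of the ratio lay above 1 for 7 members and below 1 for 6, where it did so for 23.7% and 22.3% of all genes. Summed over members, the chaperone tags came to 2440 RPM with arsenate and 2870 RPM with water, a ratio of 0.850 (0.825 to 0.876). Without hspa8 the ratio of the sums was 0.948 (0.918 to 0.979).

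**Figure D1:**
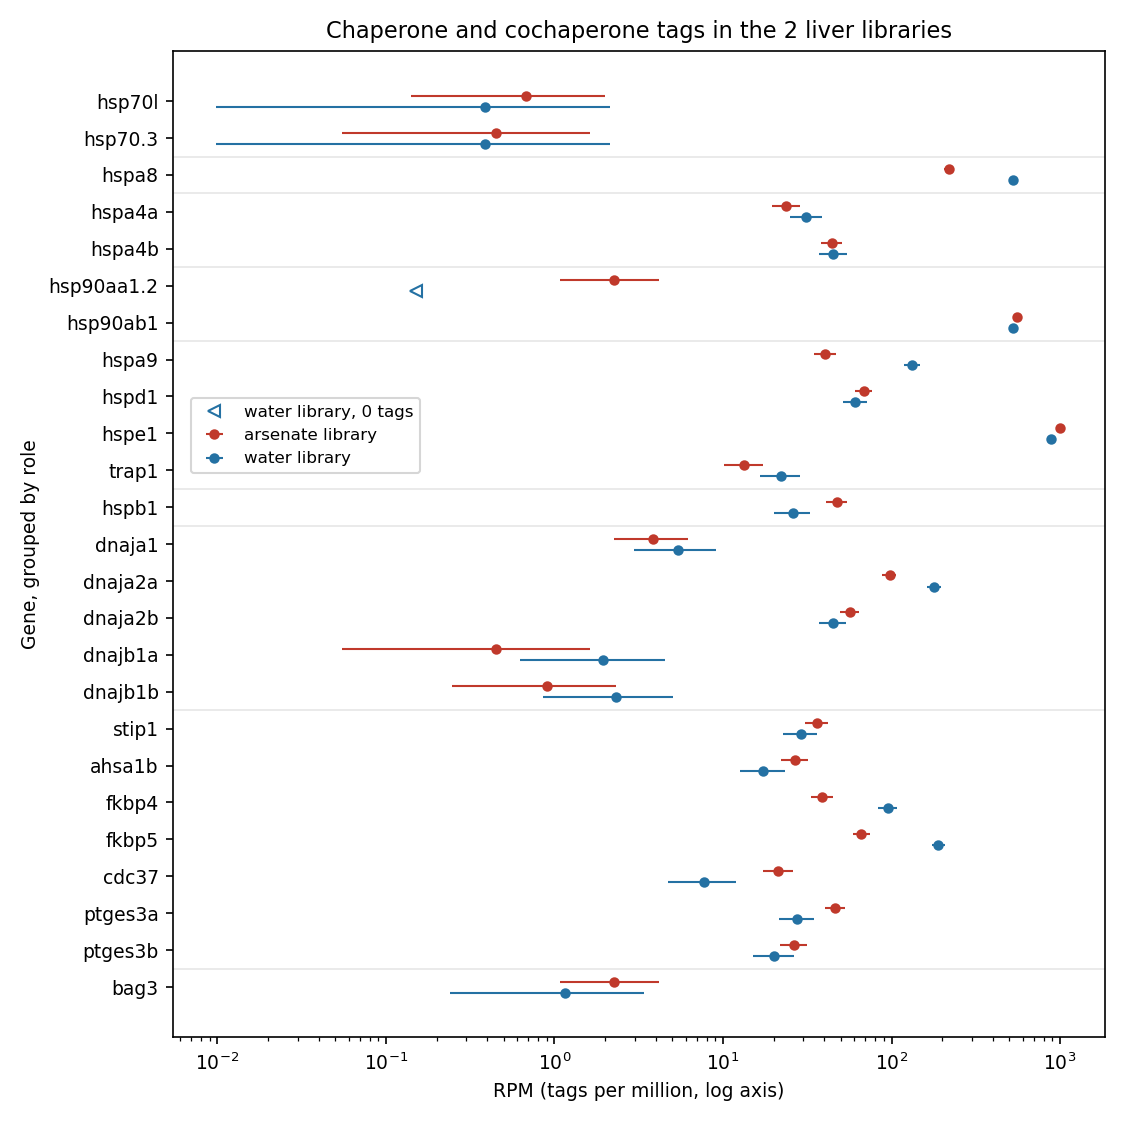
Level of each member with a tag in the arsenate library (red) and the water library (blue), in RPM on a log axis, grouped by role; bars are exact 95% Poisson intervals for counting error, and the open triangle, placed at the left of its row and not to scale, marks the 0 tags of hsp90aa1.2 in the water library. The members run from single tags (hsp70l, hsp70.3) to 1002 RPM (hspe1), and the red and blue points of hspa8, hspa9, fkbp4 and fkbp5 stand clearly apart.

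Of the 5 inducible HSP70 genes listed, the classical markers of a heat shock response, only hsp70l and hsp70.3 had a matching row. These 2 were close to absent from both libraries, and the level of hsp70.1, hsp70.2 and hspa1b is not known. The gene hsp70l had 3 tags with arsenate and 1 with water, and hsp70.3 had 2 and 1. Both lay at or under the limit of 3 tags in each library, so no fold is given for either. Together they made up 5 of the 10788 member tags in the arsenate library, 0.0463% (0.0151 to 0.108, exact binomial interval), and 2 of 7442 in the water library, 0.0269% (0.00325 to 0.0970). The genes hsp70.1, hsp70.2 and hsp70.3 lie next to each other in the RefSeq gene table, and hsp70.3 is the one with a matching row. Tags shared between copies of this family could have been assigned to any of them or left out in the authors' mapping, which limits what the low counts say.

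The constitutive HSP70 gene hspa8 encodes the housekeeping HSC70 that folds new proteins and strips clathrin coats. It had 968 tags (219 RPM) with arsenate and 1367 tags (527 RPM) with water, 2.41-fold lower (2.22 to 2.62) with arsenate. It ranked 383rd by tags among all genes with arsenate and 237th with water. Its share of the member tags was 8.97% (8.44 to 9.53) against 18.4% (17.5 to 19.3). Of the members, hspa8 also had the largest difference in RPM between the libraries. The other constitutive gene listed, hspa8b, had no matching row, and whether the 2 genes share tags was not tested.

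Set within each library, which removes the scaling between them, the 2 inducible genes had 0.00517 tags per hspa8 tag with arsenate. The value with water was 0.00146. The ratio of these was 3.53 with an interval of 0.576 to 37.1, which holds 1. A shift between these 2 genes and hspa8 was thus not detectable at this depth. The denominator hspa8 was lower with arsenate. The numerator was 5 tags against 2, a ratio of 1.47 (0.240 to 15.4), too few tags to say whether it differed. The ratio of 3.53 was 1 of 12 such within-library ratios computed. Apart from it, the pairs were picked after the values were seen, and they are given as descriptions.

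The HSP110 genes, whose proteins are exchange factors for HSP70, were both within 2-fold. The gene hspa4b stood at 44.3 RPM with arsenate and 45.1 RPM with water, a ratio of 0.982 (0.777 to 1.25) that became 1.14 when the libraries were scaled without their 10 most abundant genes. Its paralog hspa4a had 105 and 81 tags, at 23.8 RPM and 31.2 RPM, a ratio of 0.760 (0.564 to 1.03). There were 4.94 hspa8 tags per hspa4b tag with arsenate and 11.7 with water, 2.37-fold fewer (1.84 to 3.04).

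The cytosolic HSP90 gene hsp90ab1, the constitutive form and the second most abundant member in the arsenate library, was close to level. It had 2458 tags (556 RPM) with arsenate and 1362 tags (525 RPM) with water, a ratio of 1.06 (0.990 to 1.13). In the water library hspa8 and hsp90ab1 were nearly equal, at 1.004 hspa8 tags per hsp90ab1 tag, and in the arsenate library the value was 0.394, 2.55-fold lower (2.29 to 2.84). The stress-inducible form hsp90aa1.2 had 10 tags (2.26 RPM) with arsenate and none with water. Set against the limit of 3 tags, it was at least 1.95-fold higher. It reached the minimum of 10 tags through the arsenate library alone, so that it was counted as higher follows in part from the filter. Its neighbour in the gene table is hsp90aa1.1, and tags of these copies may be shared.

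The small heat shock protein gene hspb1, whose product holds unfolded proteins and binds the actin cytoskeleton, had 209 tags (47.3 RPM) against 67 tags (25.8 RPM). The ratio was 1.83 (1.38 to 2.45), just inside the 2-fold limit, and it passed that limit when the libraries were scaled without their 10 most abundant genes. The gene bag3, an exchange factor that links HSP70 to autophagy and a target of heat shock factors, had 10 tags against 3, a ratio of 1.95 (0.503 to 11.1) that rests on few tags. For hspb1 the interval lies above 1, and for bag3 it holds 1.

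**Figure D2:**
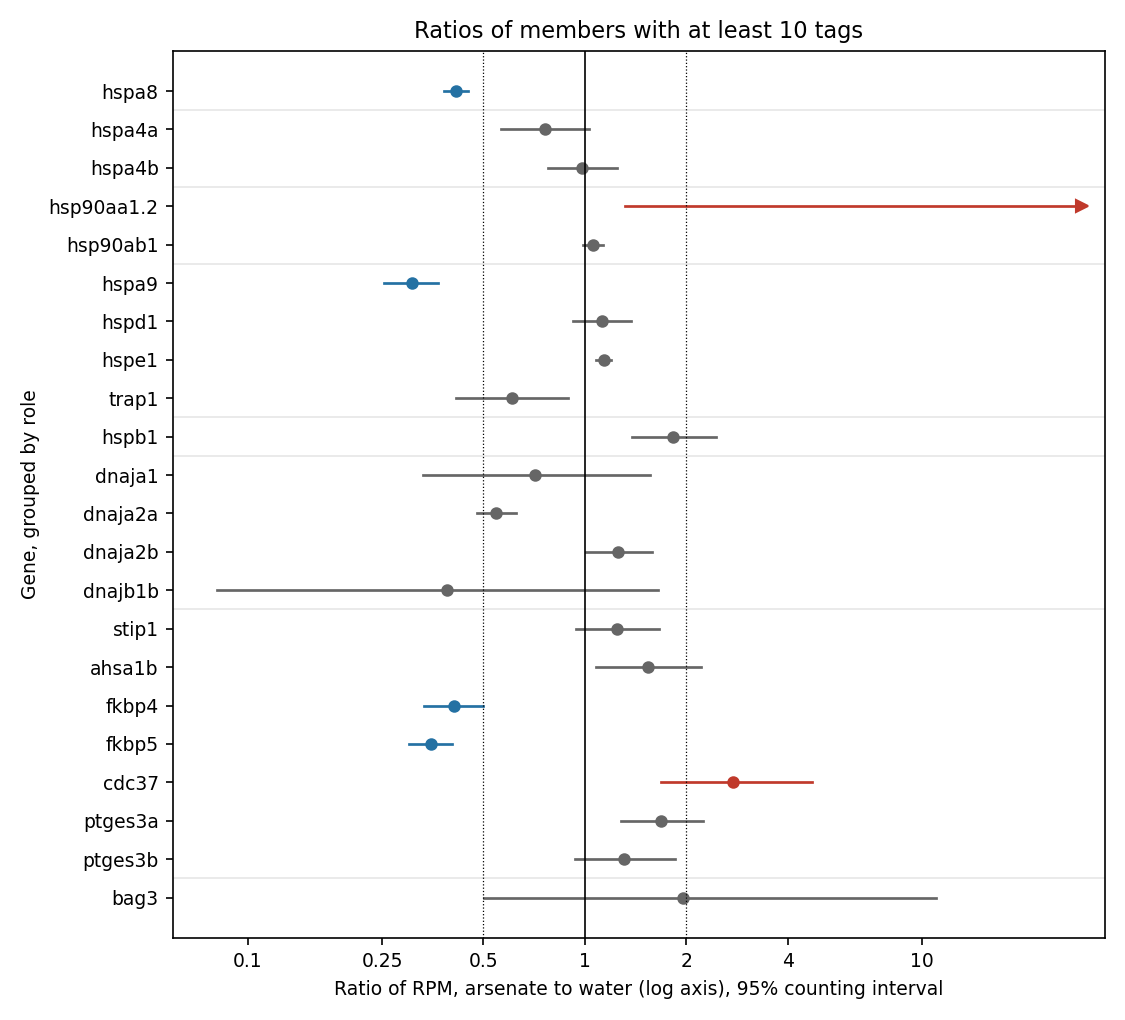
Ratio of RPM, arsenate to water, on a log axis, for the 22 members with at least 10 tags, grouped by role, with 95% counting intervals; red marks members counted as higher, blue as lower, grey as neither, dotted lines mark 0.5 and 2, and the arrow of hsp90aa1.2 has no upper end because the water library holds 0 tags. The intervals of hspa8 and fkbp4 end below 0.5, and those of hspa9 and fkbp5 lie further left.

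The mitochondrial chaperones split by gene. The matrix HSP70 gene hspa9, which encodes mortalin, the motor of protein import, had 179 tags (40.5 RPM) with arsenate and 343 tags (132 RPM) with water. It was 3.27-fold lower (2.72 to 3.94), the lowest ratio among the members with at least 10 tags. The chaperonin HSP60 gene hspd1 stood at 68.5 RPM against 60.9 RPM, a ratio of 1.12 (0.925 to 1.37). Its lid, HSP10, is encoded by the neighbouring gene hspe1, the most abundant member, which stood at 1002 RPM against 880 RPM, a ratio of 1.14 (1.08 to 1.198).

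The HSP60 and HSP10 genes kept nearly the same proportion, with 0.0684 hspd1 tags per hspe1 tag with arsenate and 0.0693 with water, a ratio of 0.988 (0.807 to 1.21). The matrix HSP70 gene did not. There were 0.591 hspa9 tags per hspd1 tag with arsenate and 2.17 with water, 3.67-fold fewer (2.80 to 4.83). The gene trap1, for the mitochondrial HSP90, lay between them, at 13.3 RPM against 21.98 RPM and a ratio of 0.607 (0.415 to 0.889). The sum over the 4 genes had a ratio of 1.03, which became 0.990 with TMM scaling and 0.569 without hspe1.

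The J-domain cochaperones, which load substrates onto HSP70, were led by dnaja2a and dnaja2b, paralogs whose ratios lay on opposite sides of 1. The gene dnaja2a had 430 tags (97.3 RPM) with arsenate and 462 tags (178 RPM) with water, a ratio of 0.546 (0.478 to 0.624). The gene dnaja2b had 249 tags (56.3 RPM) and 116 tags (44.7 RPM), a ratio of 1.26 (1.01 to 1.58). Within the arsenate library there were 1.73 dnaja2a tags per dnaja2b tag and within the water library 3.98, 2.31-fold fewer (1.77 to 3.01).

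The remaining J-domain genes were scarce. The gene dnaja1, for an HSP40 of the cytosol, had 17 tags against 14, a ratio of 0.712 (0.330 to 1.56). The heat-inducible class is represented by dnajb1a and dnajb1b, partners of inducible HSP70. They had 2 tags against 5 and 4 tags against 6, at most 2.31 RPM in either library. The intervals of both ratios hold 1, and neither gene was more abundant in the arsenate library. The summed J-domain members had a ratio of 0.683 (0.611 to 0.762), which rested on dnaja2a and was 1.13 without it.

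Among the members that are HSP90 cochaperones, the immunophilin genes fkbp4 and fkbp5 were lower and the 5 others with at least 10 tags had ratios above 1. The gene fkbp5 encodes FKBP51, which restrains steroid receptors and whose own gene is a target of the glucocorticoid receptor. It had 293 tags (66.3 RPM) with arsenate and 492 tags (190 RPM) with water, 2.86-fold lower (2.47 to 3.32). The gene fkbp4, for FKBP52, which favours transport of steroid receptors to the nucleus, had 171 tags (38.7 RPM) and 246 tags (94.9 RPM), 2.45-fold lower (2.01 to 3.00). The proportion of fkbp4 to fkbp5 tags was 1.17 times its water value (0.908 to 1.499), an interval that holds 1.

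The gene cdc37, for the adaptor that brings protein kinases to HSP90, was the only member with tags in both libraries counted as higher. It had 94 tags (21.3 RPM) against 20 tags (7.71 RPM), a ratio of 2.76 (1.69 to 4.72). Relative to hsp90ab1 it was 2.60-fold higher (1.59 to 4.48) with arsenate, while fkbp5 was 3.03-fold lower (2.58 to 3.57) and fkbp4 2.60-fold lower (2.10 to 3.21).

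The other cochaperones of HSP90 had ratios between 1.24 and 1.69. The gene ptges3a encodes p23, which stabilises the closed state of HSP90, and stood at 46.1 RPM against 27.4 RPM, a ratio of 1.69 (1.28 to 2.24). Its paralog ptges3b stood at 26.2 RPM against 20.1 RPM, a ratio of 1.31 (0.935 to 1.85). The gene ahsa1b, for the activator of the HSP90 ATPase, stood at 26.7 RPM against 17.4 RPM, a ratio of 1.54 (1.08 to 2.22). The gene stip1, for the protein that bridges HSP70 and HSP90, stood at 35.97 RPM against 28.9 RPM, a ratio of 1.24 (0.939 to 1.66). None of these 4 reached the 2-fold limit. The summed cochaperones had a ratio of 0.677 (0.621 to 0.737), and 0.993 without fkbp5.

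**Figure D3:**
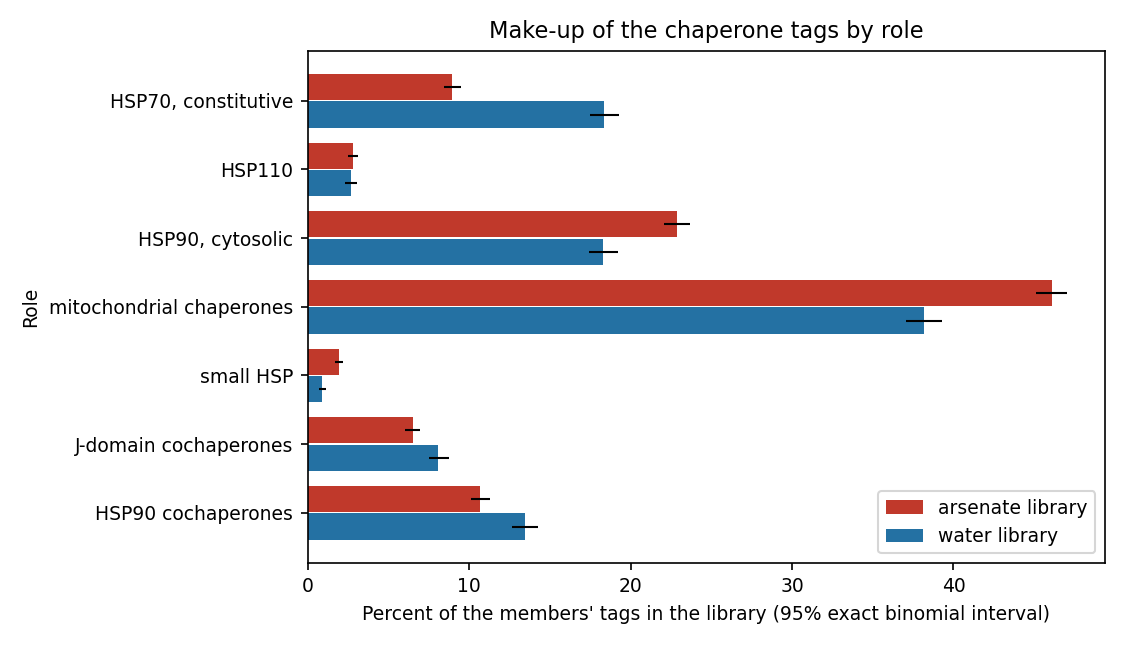
Percent of the members' tags that fell to each role, in the arsenate library (red, 10788 tags) and the water library (blue, 7442 tags), with exact 95% binomial intervals for counting error; inducible HSP70 and the BAG gene, under 0.1% each, are left out. Constitutive HSP70, here hspa8 alone, took 8.97% against 18.4%. The mitochondrial chaperones took 46.1% against 38.1% and cytosolic HSP90 22.9% against 18.3%.

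The 4 lower members were compared with the marker genes that moved with them. Exocrine pancreas markers were 11.95-fold lower and testis markers 192-fold lower in the arsenate library in summed RPM, and hepatocyte markers 3.14-fold lower. The hepatocyte sum rested on fabp10a, the 1 of 5 counted markers past 2-fold, and was 1.71-fold lower without it. With the tags of the pancreas, testis and enterocyte markers taken out of the totals, the ratio of RPM + 1 was 0.402 for hspa8, 0.300 for hspa9, 0.399 for fkbp4 and 0.340 for fkbp5. These stood at 0.416, 0.311, 0.414 and 0.353 with full totals. This removal changes the totals alone, and how many tags of these 4 genes came from cells of those organs was not tested.

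**Figure D4:**
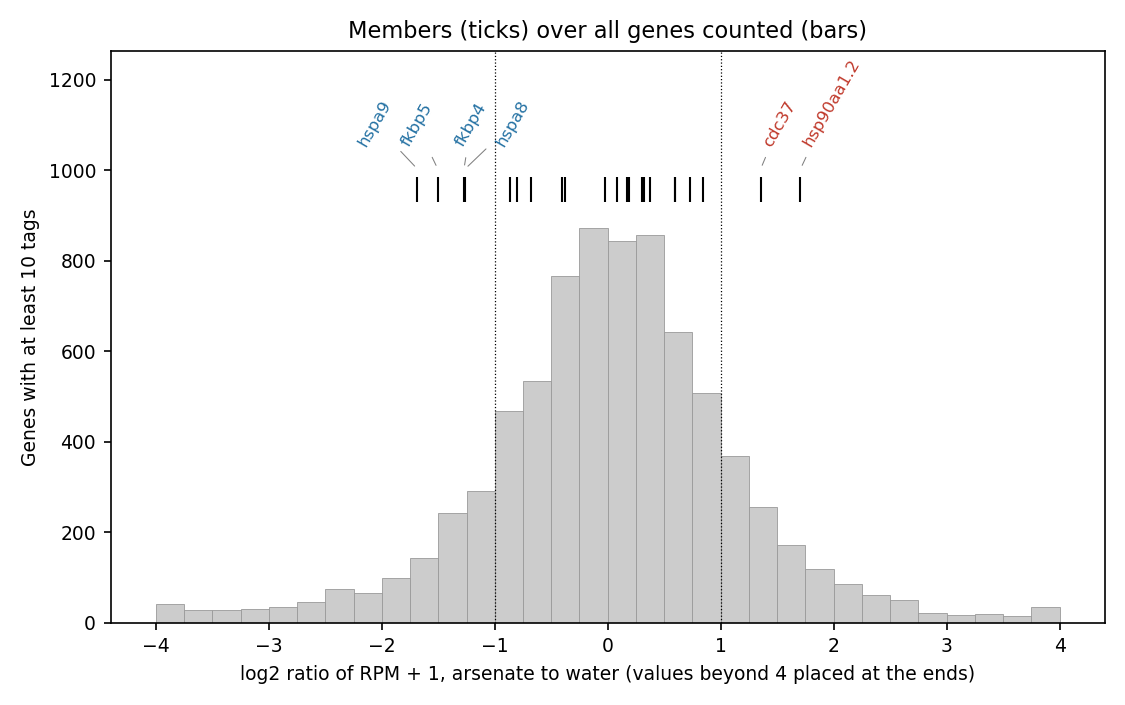
Distribution of the log2 ratio of RPM + 1, arsenate to water, over the 7839 genes with at least 10 tags (bars, in steps of 0.25), with the 22 members as ticks above it; dotted lines mark -1 and 1. The 6 named members lie outside the dotted lines and the other 16 between them, over the bulk of all genes.

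The wider chaperone network was read from 8 further lists with 115 genes, of which 72 had a matching row and 53 at least 10 tags. Of the 53, 9 were higher (17.0%), 5 lower and 39 neither, beside 15.6% and 14.4% of all genes, and the median log2 ratio was 0.07. Among the genes higher, timm44, nudcd3, nudc, dnajc11a and hspa13 reached the minimum of 10 tags through the arsenate library alone. Among the genes lower, hsf5, dnajb13 and hsbp1a did so through the water library alone. That these genes were counted follows in part from the filter. In the mitochondrial list, clpxb, clpb, lonp1 and htra2 were among the genes without a matching row. Both genes with a matching row for the mitochondrial protease ClpXP, which degrades damaged matrix proteins, were higher. Its unfolding subunit gene clpxa had 837 tags (189 RPM) with arsenate and 72 tags (27.8 RPM) with water, 6.82-fold higher (5.35 to 8.80). Its peptidase gene clpp had 636 tags (144 RPM) and 101 tags (39.0 RPM), 3.69-fold higher (2.99 to 4.60).

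The genes for direct partners of the matrix HSP70 had ratios on both sides of 1. The gene grpel1, for its exchange factor, stood at 25.6 RPM against 23.9 RPM, a ratio of 1.07 (0.777 to 1.48). The gene timm44, for the protein that tethers it to the import channel, had 21 tags against 1, a ratio of 12.3 that rests on a single water tag, with an interval of 1.98 to 509. The gene dnaja3a, for a mitochondrial J-domain protein, had 11 tags against 20 and was 3.10-fold lower (1.42 to 7.16). The gene hscb, for the J-domain protein of iron-sulfur cluster assembly, had 15 tags against 13, a ratio of 0.677 (0.300 to 1.54). Of 7 counted genes in the list of mitochondrial partners and proteases, 3 were higher and none lower, beside 15.6% and 14.4% of all genes. Of the 3, timm44 was counted through the arsenate library alone. The gene dnaja3a belongs to the J-domain list.

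Further HSP90 cochaperones gave 3 genes higher and 1 lower of 8 counted, beside 15.6% and 14.4% of all genes. A ratio below 1 was found for 5 of the 8 (62.5%), beside 48.0% of all genes. The median log2 ratio of the 8 was -0.27, beside 0.04 for all genes. Of the 3 higher genes, nudcd3 and nudc were counted through the arsenate library alone. The phosphatase gene ppp5c had 250 tags (56.5 RPM) against 38 tags (14.7 RPM), 3.86-fold higher (2.73 to 5.58). The genes nudcd3 and nudc, of the NudC family that assists dynein-linked proteins, were 3.39-fold higher (1.65 to 7.82) and 3.10-fold higher (1.36 to 8.24). The gene ttc4 had 33 tags against 46 and was 2.38-fold lower (1.49 to 3.84). Of 5 counted prefoldin genes, whose products pass new actin and tubulin chains to the chaperonin, 1 was higher, beside 15.6% of all genes. This was pfdn2 at 14.7 RPM against 5.79 RPM, 2.54-fold higher (1.43 to 4.80).

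Of 20 counted genes in the list of other J-domain proteins, 1 was higher, 2 were lower and 17 were neither. The shares over all genes were 15.6% higher and 14.4% lower. The higher J-domain gene was dnajc11a, for a protein of mitochondrial cristae, with 31 tags against 4, 4.55-fold (1.61 to 17.7). The HSP70-like gene hspa13 had 25 tags against 4, 3.67-fold higher (1.27 to 14.5), and hspa14 had 168 tags against 107, a ratio of 0.921 (0.718 to 1.18). All 6 counted exchange factors and partners of HSP70 were neither, among them stub1, the ubiquitin ligase that marks chaperone clients, with 36.9 RPM against 60.6 RPM and a ratio of 0.609 (0.486 to 0.763). The 1 counted gene of the other small heat shock proteins, hspb8, had 15 tags against 13.

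Heat shock factor genes and their regulators had a ratio below 1 in all 4 counted cases, beside 48.0% of all genes. Of the 4, hsf5 and hsbp1a reached 10 tags through the water library alone. The gene hsf2 stood at 21.5 RPM against 43.2 RPM, 2.01-fold lower (1.52 to 2.67), just short of the limit on the scale of RPM + 1. The gene hsbp1a, for a binder of heat shock factors, had 9 tags against 17 and was 3.22-fold lower (1.36 to 8.20), while its more abundant paralog hsbp1b had 269 tags against 194, a ratio of 0.813 (0.674 to 0.983). The gene hsf5, a heat shock factor of male germ cells, had no tag with arsenate and 16 with water, at least 9.09-fold lower against the limit of 3 tags. The sperm flagellum gene dnajb13, counted through the water library alone as well, had none and 15, at least 8.53-fold lower. Both moved with the testis markers, at 7 tags against 789, and the part of testis RNA in their values was not tested.

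**Figure D5:**
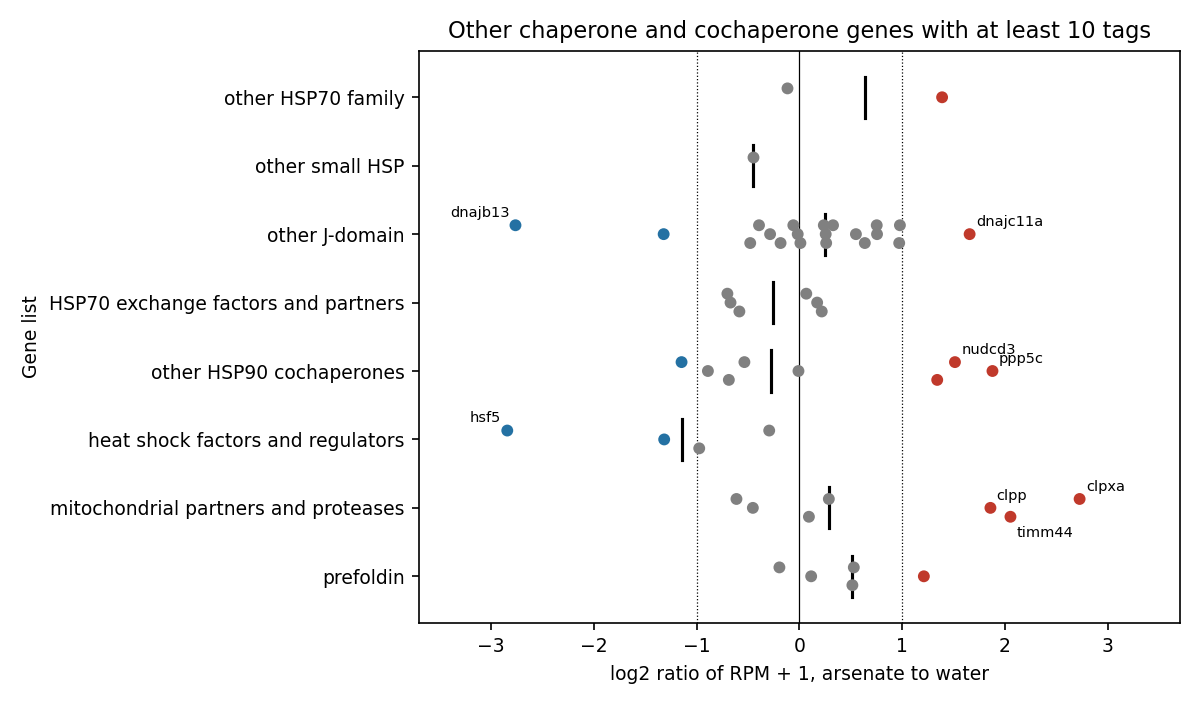
Log2 ratio of RPM + 1, arsenate to water, for the 53 other chaperone and cochaperone genes with at least 10 tags, by list; red marks genes counted as higher, blue as lower, grey as neither, the black bar is the list's median, and genes beyond 1.5 on either side are named. The mitochondrial list holds clpxa, clpp and timm44 on the right, and dnajb13 and hsf5 stand alone on the left.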

How the data were processed

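Each deposited table gives a value headed TPM for 17991 transcripts, identified by GI number, 10556 of them also by RefSeq accession. The authors' deposited values are taken here to be RPM because 100% of them were whole multiples (within 0.01 tags) of the value of 1 tag and both columns summed to the same total. Tags were recovered this way, and a blank was taken as 0 tags. The sources used here do not name the mapping tool, reference release or filters. Of the accessions, 9463 matched a symbol in the GRCz12tu RefSeq table, from which names and gene order were taken; 7435 rows lack an accession. Transcripts of 1 gene were summed. Each row without a matched symbol was kept as a gene of its own and is part of the background of all genes. Rows with a symbol held 73.2% of the tags with arsenate and 81.3% with water. Shares over named genes alone were not computed.

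The members, gene lists and rules were chosen with earlier results of these data known. All counted members are named, as are counted genes of the pathway lists past 2-fold (up to 12 per direction) and the 2 markers with most tags per list; other genes of the lists (grpel1, hscb, hspa14, stub1, hspb8, hsf2, hsbp1b) were added after their values were seen. Intervals are exact Clopper-Pearson or Poisson intervals at 95%, or exact conditional intervals for within-library ratios. Tags copied by PCR are not independent molecules, so these are too narrow. An exact two-sided binomial test on the recovered tags, adjusted over all genes by Benjamini-Hochberg at 0.05 with a ratio of at least 2, was an alternative and compares the libraries, not the conditions: it called 1070 genes higher and 1063 lower. Scaling used edgeR 4.0.16 (TMM) and DESeq2 1.42.0 (size factors) in R 4.3.3, and other steps scipy 1.17.1, pandas 2.3.3 and numpy 2.4.6 under Python 3.11.15, with figures by matplotlib 3.10.9. Tag recovery, the rule for counting a gene as higher or lower, the exact binomial test and the coverage of the ratio intervals were tried on simulated libraries.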

Additional observations from a re-analysis of the deposited data

How the results depend on the processing

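The 4 lower members were the same genes under TMM, size factors, totals without the 10 most abundant genes, thinning and the exact test. Under these settings 11.7% to 15.8% of all genes were lower. With a pseudocount of 0.1 there were 5 of 22, which adds dnajb1b, beside 17.2% of all genes. With a minimum of 1 tag there were 5 of 25, which adds dnajb1a, beside 11.1% of 14068 genes. Of 176 values of single counted members under 8 alternatives, 171 stayed within their counting interval, 5 moved and none of the called members changed direction. Each member with a row had 1 transcript, so keeping the transcript with the most tags could not move a value. A scaling moves all genes by nearly the same amount, here too little to reverse a member past 2-fold. These counts therefore describe the settings and are no check on the differences. With the other scalings the median over all genes shifted by under 0.1 on the log2 scale. The 5 values that moved came from totals without the 10 most abundant genes, where that median rose by 0.19. There 1589 genes were higher and 915 lower. There hspa8 was 2.07-fold, fkbp5 2.44-fold and dnaja2a 1.57-fold lower, and the ratios of hsp90ab1 and hspe1 were 1.23 and 1.32. Members higher and lower, of 22, were 6 and 7 at 1.5-fold, beside 27.8% and 24.4% of all genes. At 4-fold they were 0 and 0, beside 3.87% and 4.48%. With a pseudocount of 5, 1 of 22 members was higher, beside 7.4% of all genes. With at least 50 tags it was 1 of 18, beside 16.1%, and with the deeper library thinned 1 of 19, beside 15.5%. In each of these settings hsp90aa1.2 is lost. Of all 7839 genes, those higher and lower were 580 and 610 with a pseudocount of 5, 2176 and 1913 at 1.5-fold, and 303 and 351 at 4-fold. With at least 50 tags they were 713 and 565 of 4433. For the pathway lists, of 53 genes, the counts were 3 and 2, 14 and 11, and 2 and 2. With at least 50 tags they were 5 and 1 of 31. Without the 10 most abundant genes the ratios of summed RPM were 1.23 for cytosolic HSP90, 1.19 for mitochondrial chaperones, 0.793 for J-domain and 0.786 for HSP90 cochaperones; without hspe1, dnaja2a and fkbp5 they were 0.569, 1.13 and 0.993. The causes were not tested. Totals without pancreas, testis and enterocyte markers were added after the data were seen. Leaving out the most abundant gene of each HSP70 class gave no value, since no hspa8b row was used, and motif and protein comparisons were not run for want of sequences. No paired analysis was possible because each group is 1 library. Values of hsp70l, hsp70.3, dnajb1a, dnajb1b, bag3 and hsp90aa1.2 rest on 10 tags or fewer per library.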
